A study of Saccharomyces cerevisiae with 3 samples.

Results

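The cytosolic ribosomal protein genes of Saccharomyces cerevisiae were followed across 3 Affymetrix yeast arrays. Strain S288c, whose genome is the reference for baker's yeast, gave total RNA after 5 h with the solvent dimethylformamide (DMF) alone, with 7.5 µM tomatidine or with 15 µM tomatidine, the compound being given in the same solvent. Tomatidine is the steroidal alkaloid left when tomatine, a defence compound of tomato plants, loses its sugars. Each condition had 1 array, so no test and no p-value was possible, and the values below describe these 3 arrays. In such bulk samples fewer cells of a kind and less RNA per cell cannot be told apart. The median deposited signal was 28.7 on the control array, 30.3 at 7.5 µM and 30.7 at 15 µM, and each array was scaled to a common median. The geometric mean of 8 spiked control probe sets was then 219.5, 136.5 and 123.0 in the same order, so scaling on spikes shifts every ratio up. Whether these controls follow the amount of RNA per cell was not tested. For ACT1 the control probe sets at the 3′ end over those at the 5′ end, a sign of RNA quality, read 1.63, 1.80 and 1.47, and its part in the results was not tested.

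Members were taken by name, as every probe set annotated to a gene whose symbol is RPL or RPS followed by a digit, or RPP followed by 0, 1 or 2. This gave 135 genes of 5923 with a probe set, read by 165 of 9275 non-control probe sets. Of these, 106 were annotated to 1 gene and 59 were shared by the copies of a duplicated gene. The one-gene probe sets read 80 ribosomal protein genes, 42 of the large subunit, 33 of the small subunit and 5 of the ribosomal stalk. They also read RPP1, which the name rule takes but which encodes a protein of RNase P and RNase MRP, and it is kept apart. A further 54 genes were read by shared probe sets only, in 37 pairs together with 20 of the 80. Where a gene had several one-gene probe sets (21 genes), the brightest over the arrays was used.

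The yeast cytosolic ribosome is built from ribosomal RNA and a set of proteins of which most are encoded by a pair of duplicated genes, named A and B, whose proteins are identical or nearly so. Transcription of these genes takes a large part of the activity of RNA polymerase II in growing yeast and is set by growth and nutrient signals through the factors Rap1, Fhl1, Ifh1 and Sfp1. The genes are known for being turned down together when growth slows, in the environmental stress response.

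With arrays scaled to a common median, most ribosomal protein genes were lower with tomatidine than with the solvent alone. The median log2 ratio over the 80 genes was -0.34 at 15 µM over control, a median difference of -20.9%, while over all 4723 genes compared, those above a signal floor on at least 1 array, it was -0.03. It was -0.28 at 7.5 µM over control, a median difference of -17.4%, against -0.03 over all genes. These directions depended on the scaling. When ratios were also centred on signal level, the 15 µM median was -0.07 and the 7.5 µM median turned to 0.01. Over all genes the centred medians were 0.01 and 0. With the arrays scaled on the spiked control probe sets both medians of the members turned positive, 0.50 and 0.41. The median of all genes then stood at 0.74 and 0.59.

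Of the 80 genes, 70 lay below 0 at 15 µM over control, where 52.4% of all genes compared did. At 7.5 µM over control 67 lay below 0, against 53.7% of all genes. The differences were small for single genes. At 15 µM 4 genes were at least 1.5-fold lower, a size reached by 6.9% of all genes, and 1 was at least 1.5-fold higher, against 8.26% of all genes. No member reached 2-fold at 15 µM, where 1.14% of all genes were at least 2-fold lower and 2.73% at least 2-fold higher. At 7.5 µM no member was 1.5-fold lower (background 5.21%) or 2-fold lower (background 0.614%), 2 were at least 1.5-fold higher (background 8.62%), and 1 of these was at least 2-fold higher (background 1.99%). In each of the 1.5-fold and 2-fold counts the members' share was below that of all genes.

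**Figure D1:**
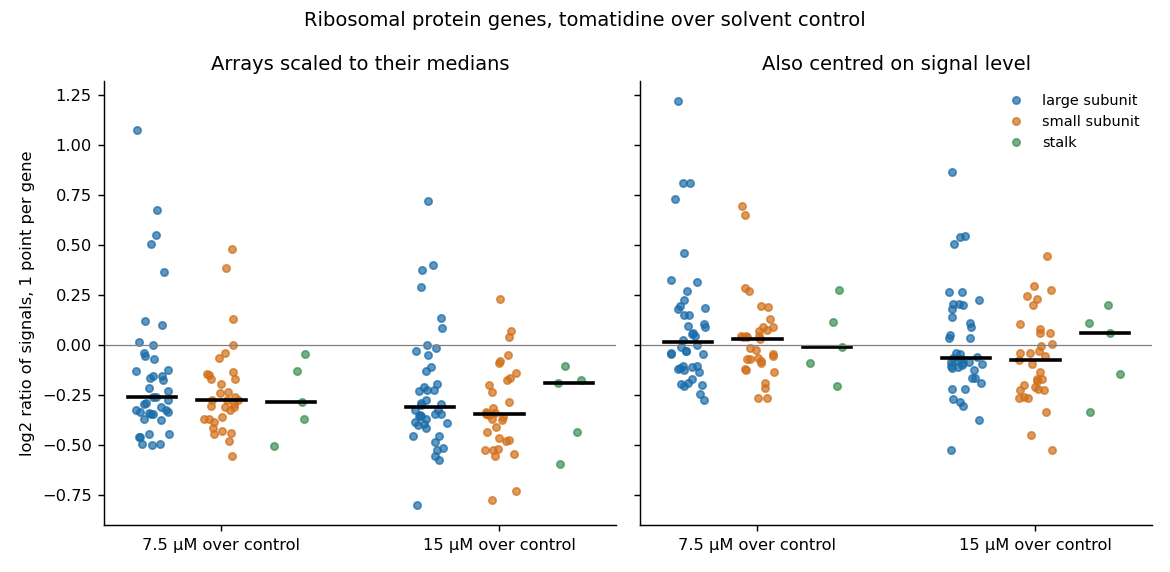
Log2 ratios of 80 ribosomal protein genes, 1 point per gene, at 7.5 µM and at 15 µM tomatidine over the solvent control, by subunit, with black bars at the medians. With arrays scaled to their medians (left) the medians lie between -0.35 and -0.19, and after centring on signal level (right) between -0.08 and 0.06, while with spike scaling (not drawn) they are above 0.

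The members belonged to the brightest probe sets of each array. On the control array the 80 scaled signals ran from 229 to 4319 with a median of 1771, on the 7.5 µM array from 203 to 3481 with a median of 1467, and on the 15 µM array from 252 to 3772 with a median of 1366. In rank among all non-control probe sets, the median member stood at percentile 98.6 on the control array, 98.5 at 7.5 µM and 98.5 at 15 µM. All 80 genes were above the signal floor of 18.2 on every array. One member probe set was not, a second probe set of RPL7A, with 22.1 on the control array, 19.7 at 7.5 µM and 9.54 at 15 µM. The summed signal of the 80 genes was 17.0%, 15.4% and 14.8% of that of all genes compared on the control, 7.5 µM and 15 µM arrays, a share of brightness and not of transcripts.

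Other bright genes were also lower with tomatidine. Among genes with a mean scaled signal of 2000 or more, the median log2 ratio at 15 µM was -0.35 for 26 ribosomal protein genes and -0.30 for 21 other genes, and at 7.5 µM it was -0.32 and -0.37. Between 1000 and 1500, the medians at 15 µM were -0.35 for 25 ribosomal protein genes and -0.15 for 53 other genes, and at 7.5 µM -0.26 and -0.15. Between 1500 and 2000 they were -0.35 (15 genes) and -0.18 (20 genes) at 15 µM, and -0.24 and -0.20 at 7.5 µM. A smooth curve of ratio on signal, fitted without the members, had a median of -0.26 at the members' signals for each dose. Between 500 and 1000 the medians were -0.33 (9 genes) and -0.16 (209 genes) at 15 µM, and -0.22 and -0.16 at 7.5 µM. Between 200 and 500 the members went the other way, with 0.14 (5 genes) and -0.08 (519 genes) at 15 µM, and 0.13 and -0.10 at 7.5 µM. Other bright genes thus showed a lower level too, and these differences were not tested.

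**Figure D2:**
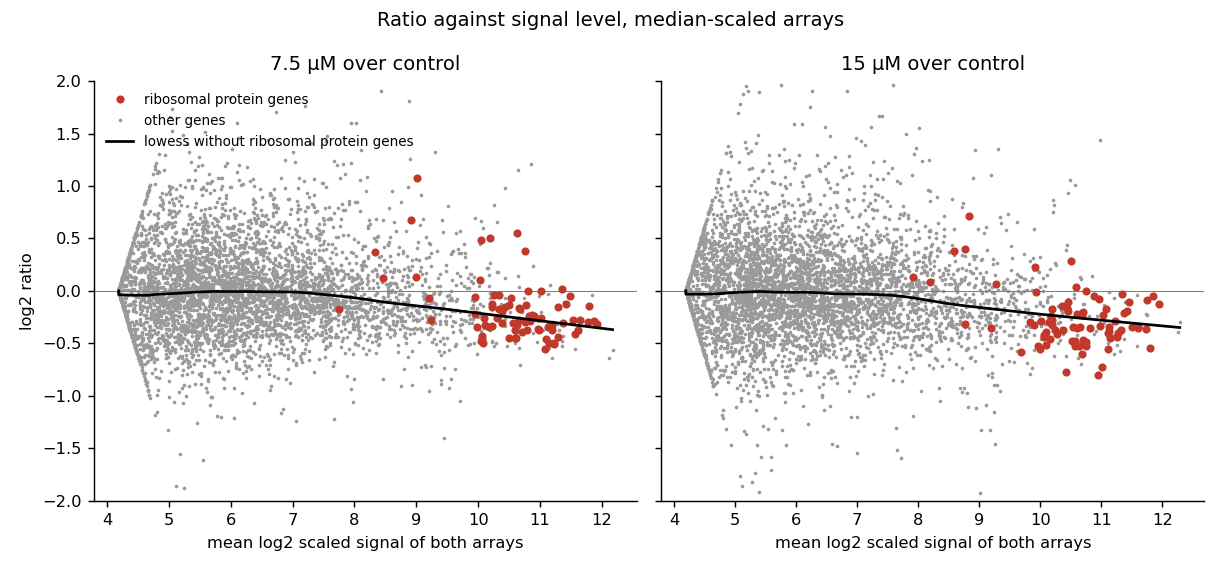
Log2 ratio against mean log2 scaled signal for each gene compared, at 7.5 µM and at 15 µM over control, with ribosomal protein genes in red and the lowess curve fitted without them in black. The curve bends down at high signals to between -0.35 and -0.05 over the members' range, and the members lie around it. Of other genes, 11 and 26 lie beyond the axis.

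After subtraction of that curve, 49 of the 80 genes lay below 0 at 15 µM over control (background 47.7%) and 39 at 7.5 µM over control (background 49%). No gene was then 1.5-fold lower at either dose (backgrounds 5.84% and 4.45%), 1 was at least 1.5-fold higher at 15 µM (background 8.98%) and 6 were at 7.5 µM (background 9.51%). Other genes of like signal were not centred at 0 in every range. Between 1000 and 1500 the centred medians of members and other genes at 15 µM were -0.09 and 0.08. They were -0.08 and 0.09 between 1500 and 2000, and -0.04 and -0.01 from 2000 up. Between 500 and 1000 they were -0.11 and 0.04, and between 200 and 500 they were 0.20 and 0.03. At 7.5 µM these medians were 0.27 and -0.0085 between 200 and 500, and -0.0093 and 0.01 between 500 and 1000. They were -0.02 and 0.08 between 1000 and 1500, 0.03 and 0.06 between 1500 and 2000, and -0.01 and -0.07 from 2000 up. In percentile rank, which does not depend on scaling, 49 of the 80 stood lower and 31 higher at 15 µM than on the control array, with a median difference of -0.11 percentile points. At 7.5 µM 46 stood lower and 34 higher than on the control array. Rank shifts were not counted over all genes, so these counts are not shown to be particular to the members.

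Both subunits gave like values on the median-scaled arrays, and the directions turn with spike scaling as above. At 15 µM over control the median for the 42 large subunit genes was -0.31 (log2 ratio), with 35 below 0, and at 7.5 µM it was -0.26, with 33 below 0. The 33 small subunit genes had medians of -0.35, with 30 below 0, and -0.28, with 29 below 0. Of all genes compared, 52.4% lay below 0 at 15 µM and 53.7% at 7.5 µM. After centring on signal the medians at 15 µM were -0.07 and -0.08, and at 7.5 µM 0.01 and 0.03. Then 25 large and 22 small subunit genes lay below 0 at 15 µM (background 47.7%), and 20 and 16 at 7.5 µM (background 49%). The ranges overlapped widely, from -0.80 to 0.72 in the large subunit and from -0.77 to 0.23 in the small subunit at 15 µM over control.

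The stalk is the flexible arm of the large subunit that calls in the elongation factors, with P0 at its base and the acidic proteins P1 and P2 in pairs on it. RPP0, the gene of the base protein, had scaled signals of 2853 on the control array, 2009 at 7.5 µM and 2107 at 15 µM. RPP2A, a P2 gene, had 2027, 1664 and 1341 in the same order, and RPP2B, the other P2 gene, 2302, 1779 and 2039. The P1 genes differed less, with 1506, 1375 and 1319.9 for RPP1A and 2926, 2833 and 2718 for RPP1B. All 5 stalk genes were thus brightest on the control array, with log2 ratios at 15 µM over control from -0.60 for RPP2A to -0.11 for RPP1B. After centring on signal they ran from -0.33 to 0.20.

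The lowest member at 15 µM was RPL5, whose protein carries the 5S ribosomal RNA into the large subunit. Its scaled signals were 2609.9 on the control array, 2082 at 7.5 µM and 1499.9 at 15 µM, a stepwise order. It was 1.74-fold lower at 15 µM than on the control array, with a log2 ratio of -0.80, and of -0.52 after centring on signal. RPS28B, a small subunit gene, had 1785, 1473 and 1044 in the same order and was 1.71-fold lower at 15 µM. A second probe set of RPS28B had 1119, 906 and 702, with a log2 ratio of -0.67 at 15 µM over control, so both probe sets of the gene gave the same order.

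RPS31, which encodes a fusion of ubiquitin and a small subunit protein, had 2651 on the control array, 2052 at 7.5 µM and 1600.0 at 15 µM and was 1.66-fold lower at 15 µM. RPP2A was 1.51-fold lower at 15 µM and is the last of the 4 genes past 1.5-fold. With spike scaling the 15 µM log2 ratios of RPL5, RPS28B, RPS31 and RPP2A were 0.04, 0.06, 0.11 and 0.24. The sign of these ratios thus depended on the scaling, and their lower level is relative to other genes. RPS10B, a small subunit gene, had 1238, 918 and 842 and a log2 ratio of -0.56. RPL38, a single-copy large subunit gene, stood apart from these, with 1010.0 on the control array, 1082 at 7.5 µM and 677 at 15 µM, so that only the 15 µM array was low.

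At 7.5 µM the lowest ratios were those of RPS2, RPP0, RPL10 and RPL27A. RPS2, a small subunit gene, had scaled signals of 2629, 1792 and 2159.6 on the control, 7.5 µM and 15 µM arrays, a log2 ratio of -0.55 at 7.5 µM over control. RPL10, whose protein joins the large subunit late in its assembly, had 2685, 1899.6 and 1827 in the same order, and RPL27A had 1282, 909 and 1061. RPS2 was 1.47-fold lower at 7.5 µM than on the control array and RPL27A 1.41-fold lower, and both were less low at 15 µM. With spike scaling the ratios of RPL10 and RPL27A at 7.5 µM were 0.19 each, above 0.

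At 15 µM 10 of the 80 genes were not below the control array, 7 of the large and 3 of the small subunit. All 10 have a paralog, as do 62 of the 80, and 1 of the 10, RPL24A, had a log2 ratio of only 0.0004. RPL7B, a large subunit gene, was the highest, with scaled signals of 357 on the control array, 753 at 7.5 µM and 588 at 15 µM. Both tomatidine arrays were above the control array, by 2.11-fold at 7.5 µM and 1.65-fold at 15 µM. A second, dimmer probe set of RPL7B had 124, 265 and 199.7 and log2 ratios of 1.10 and 0.69, close to the 1.08 and 0.72 of the first. RPL7A, its paralog, had 981, 1393 and 972, so that only the 7.5 µM array was high. A second probe set of RPL7A had 736, 807 and 589, with log2 ratios of 0.13 at 7.5 µM and -0.32 at 15 µM over control, where the first had 0.50 and -0.01, and RPL7A had the widest range between probe sets of a gene at 7.5 µM, 0.67 over 3 probe sets with the dim one included. The probe set shared by both genes had 1413, 1622 and 1194.

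RPL9A, a large subunit gene, had 381 on the control array, 608 at 7.5 µM and 503 at 15 µM, 1.59-fold and 1.32-fold higher with tomatidine. RPL9B, its paralog, had 283, 365 and 301. The probe set shared by RPL9A and RPL9B ran the other way, with 1132, 952 and 788 and a log2 ratio of -0.52 at 15 µM over control. The one-gene probe sets of RPL7A, RPL7B, RPL9A and RPL9B used here are of the type named _i, which holds fewer probes than usual. With plain probe sets alone no member was 1.5-fold higher at either dose on the median-scaled arrays, and 1, RPL37B, was at 7.5 µM after centring on signal, with a log2 ratio of 0.81.

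RPL37B and RPS29B were also higher. RPL37B had 1311 on the control array, 1920.0 at 7.5 µM and 1602 at 15 µM, with log2 ratios of 0.55 and 0.29, and it is read by a plain probe set. RPL37A, its paralog, had 2561, 1863 and 1959 and so was highest on the control array. RPS29B had 890.4, 1243 and 1044, and RPS29A 1519.6, 1982 and 1560.2. Both RPS29 genes are read by probe sets of the type named _f, which are not plain and were chosen for 15 of the 80 genes. For RPL37B and both RPS29 genes the 7.5 µM array was the highest of the 3.

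RPL22B, whose intron-containing transcript is bound by its own protein, had 336, 366 and 436 on the control, 7.5 µM and 15 µM arrays, the only ascending order among the 80 genes. RPL22A had 2651, 2379 and 1936, a descending order. RPL15B, the dimmest member, had 229, 203 and 252, while RPL15A had 1063, 914 and 848. RPS14B, another dim member, whose pre-mRNA is bound by the protein it encodes, had 485, 531 and 390.5. The log2 ratios of RPL7B, RPL9A, RPL37B, RPS29B and RPL22B over control stayed above 0 at both doses under every scaling, floor and centring tried. Plain probe sets alone gave no value for RPL9A and RPS29B, whose only one-gene probe sets are of other types.

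**Figure D3:**
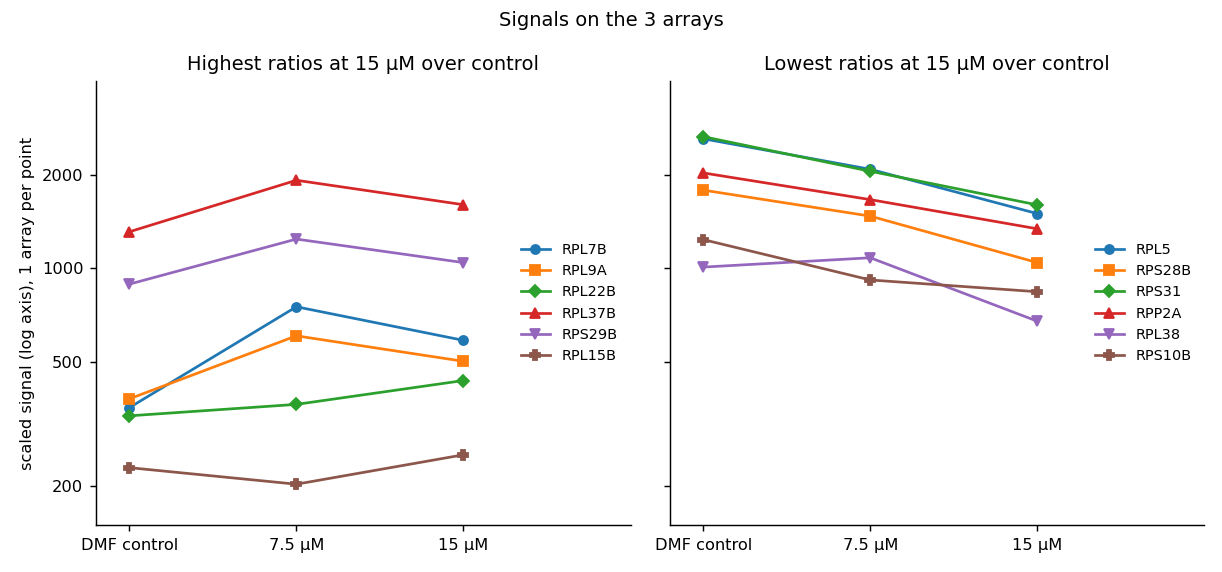
Scaled signals (log axis) of the 6 genes with the highest and the 6 with the lowest log2 ratios at 15 µM over control, on the DMF control, 7.5 µM and 15 µM arrays, 1 array per point. RPL7B stands at 753 at 7.5 µM, against 357 on the control array, and RPL5 at 1499.9 at 15 µM, against 2609.9 on the control array, a direction that spike scaling turns to a log2 ratio of 0.04.

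The brightest one-gene probe sets, which need not be those of the most abundant mRNAs, read RPS22A, RPL21B, RPS21A and RPS21B. RPS22A had 4319 on the control array, 3481 at 7.5 µM and 2955 at 15 µM. RPL21B had 4126, 3377 and 3772, and RPS21A 3744, 3385 and 3612. RPS21B had 3874, 3155 and 3020.4. In each of these 4 genes the control array was the highest on the median-scaled arrays. After centring on signal the 15 µM log2 ratios over control were 0.20 for RPL21B and 0.27 for RPS21A. They were -0.22 for RPS22A and -0.04 for RPS21B. At 7.5 µM the centred ratios of all 4 lay above 0, from 0.04 to 0.20. With spike scaling all 4 were above 0 at both doses.

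Genes with no second copy and genes with one were set side by side. At 15 µM over control the 18 single-copy genes had a median of -0.39 (log2 ratio), with 18 of 18 below 0, and at 7.5 µM one of -0.34, with 17 below 0 and RPL38 above. The 62 genes with a paralog had medians of -0.32, with 52 below 0, and -0.22, with 50 below 0. The shares of all genes below 0 were 52.4% and 53.7%. After centring, 12 single-copy genes and 37 with a paralog lay below 0 at 15 µM (background 47.7%), and 14 and 25 at 7.5 µM (background 49%). After centring on signal the medians were -0.12 and -0.06 at 15 µM and -0.07 and 0.05 at 7.5 µM, and with spike scaling the members' medians are above 0. The difference between these classes was not tested.

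Among the 80 genes, 31 pairs had a one-gene probe set for both copies. The median absolute difference between the log2 ratios of the A and B genes was 0.15 at 15 µM over control and 0.18 at 7.5 µM over control. Both copies lay below 0 in 23 pairs at 15 µM and 22 at 7.5 µM, both above 0 in 2 and 3 pairs, and the copies differed in sign in 6 pairs at each dose. These signs are those of the median-scaled arrays, while the difference within a pair does not depend on the scaling factor. Near-identical copies may also bind each other's probes, which cannot be told apart from a shared level.

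The widest pair at 15 µM was RPL22, with a log2 ratio for the A gene minus that for the B gene of -0.83, and of -0.67 after centring on signal. RPL7 followed with -0.73 and RPL37 with -0.68, and for RPL37 the difference at 7.5 µM was -1.01. RPL15 had -0.46 and RPP2 -0.42. In all 5 of these pairs the B gene had the higher ratio, whereas over the 31 pairs the A gene had the higher ratio in 14. The narrowest pairs were RPL17, RPL16 and RPL24, with differences of -0.02, -0.03 and 0.03. This holds for the brightest probe sets, since for RPL17B the others read -0.73 and -0.56 at 15 µM over control and for RPL17A the other read -0.43.

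**Figure D4:**
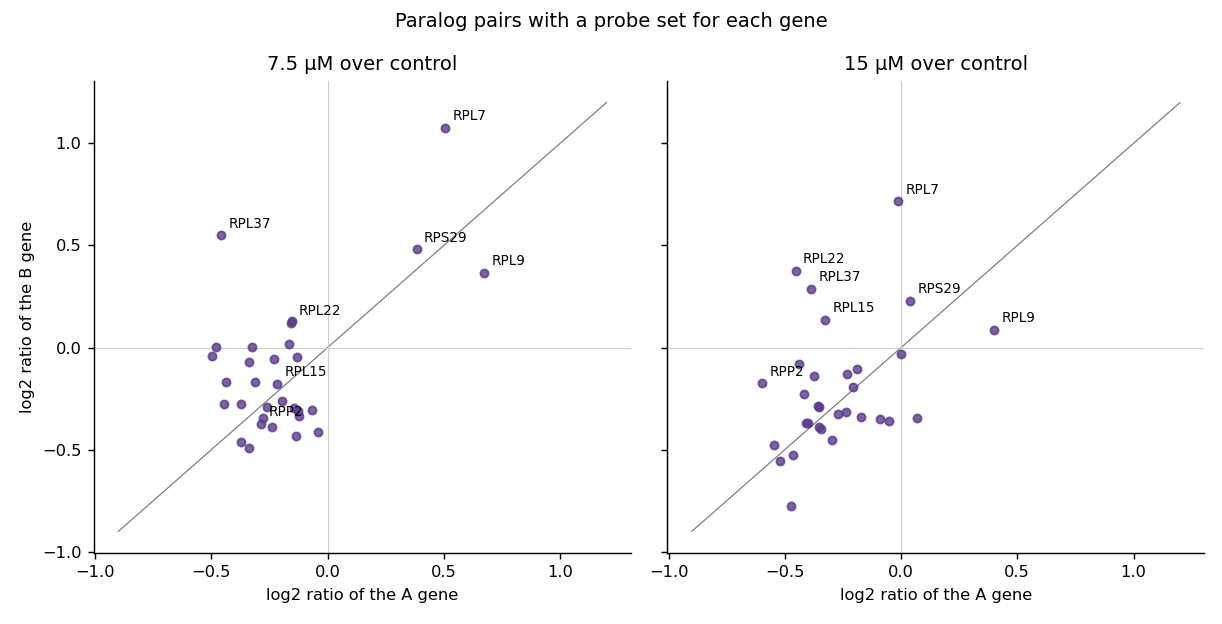
Log2 ratio of the B gene against that of the A gene for 31 paralog pairs, at 7.5 µM and at 15 µM over control, with the line of equal ratios and 7 pairs named. Most pairs lie at lower left (23 with both copies below 0 at 15 µM, on median-scaled arrays but not under spike scaling), and RPL7, RPL22 and RPL37 lie far above the line at 15 µM.

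The 59 probe sets shared by both copies of a gene had a median of -0.30 (log2 ratio) at 15 µM over control, with 54 below 0, where 52.4% of all genes were, and 4 at least 1.5-fold lower, a share close to the 6.9% of all genes. At 7.5 µM the median was -0.25, with 48 below 0, against 53.7% of all genes. After centring on signal the medians were -0.05 and -0.03 and 0 probe sets were 1.5-fold lower at 15 µM, and with spike scaling the medians turned to 0.54 and 0.43. The lowest was that of RPS19A and RPS19B, with 1532 on the control array, 1296 at 7.5 µM and 995 at 15 µM. A probe set of RPS16A and RPS16B had 1324, 991 and 867, and that of RPS4A and RPS4B 2043, 1512 and 1353. These 3 read small subunit genes and had log2 ratios between -0.62 and -0.60 at 15 µM over control.

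The highest shared probe set was one of RPS9A and RPS9B, of type _i, with 239 on the control array, 293 at 7.5 µM and 328 at 15 µM. The brighter one-gene probe sets of these genes did not share this rise. That of RPS9B had 1679, 1357 and 1321, with a log2 ratio of -0.35 at 15 µM over control. That of RPS9A had 608, 580 and 638, with a log2 ratio of 0.07. One of 3 probe sets of RPL4A and RPL4B had 437, 589 and 517 and a log2 ratio of 0.24 at 15 µM over control, where the others had -0.38 and -0.32. The probe set of RPL35A and RPL35B had 1076, 1354 and 1196. Among the brightest, that of RPL2A and RPL2B had 3786, 2809.7 and 3461. That of RPL26A and RPL26B had 3785, 2619 and 2893, and one of RPS0A and RPS0B had 3096, 2188 and 2363, so these 3 were lowest at 7.5 µM.

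Several probe sets of 1 gene give the only repeat measure in these data, and it covers probe sets on the same array, not cultures. Over 21 genes with 46 one-gene probe sets, the pooled SD of the log2 ratio was 0.19 at 15 µM over control, 0.17 at 7.5 µM over control and 0.13 at 15 µM over 7.5 µM. The widest gap at 15 µM was in RPS22B, where 3 probe sets had log2 ratios of -0.48, -0.30 and 0.18. Probe sets of 1 gene differed in sign in 2 genes at 15 µM and 3 genes at 7.5 µM.

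Between the doses the members differed little. The median log2 ratio at 15 µM over 7.5 µM was -0.08, with 51 of 80 genes below 0 (background 49.7%), and it turned to 0.07 with spike scaling. No gene was 1.5-fold higher (background 4.07%) and 1 was 1.5-fold lower, RPL38 with a log2 ratio of -0.68 (background 3.09%). After centring on signal 51 lay below 0 (background 48.4%), none was 1.5-fold higher (background 4.13%) and RPL38 alone was 1.5-fold lower (background 3.05%). On the median-scaled arrays RPL38 was followed by RPL7A with -0.52, RPS28B with -0.50 and RPL5 with -0.47. On the other side, RPL15B had 0.31, RPS26A 0.28, RPS2 0.27 and RPL22B 0.25. RPS26A, whose protein lies where mRNA leaves the small subunit, had 3564 on the control array, 2756 at 7.5 µM and 3347 at 15 µM. Over the 3 median-scaled arrays in dose order, 39 of the 80 genes descended, 28 were lowest at 7.5 µM, 12 were highest at 7.5 µM and 1 ascended. These orders were not counted over all genes, so they are not shown to be particular to the members.

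The regulators of ribosomal protein genes were read from a list of 15 genes, 14 of which were compared. Their median log2 ratio was -0.06 at 15 µM over control, with 9 of 14 below 0, and -0.26 at 7.5 µM over control, with 8 of 14 below 0, on the median-scaled arrays. These shares are near the 52.4% and 53.7% of all genes. RAP1, the main activator of the family, had 145 on the control array, 126 at 7.5 µM and 129 at 15 µM. SFP1, an activator that answers nutrients and stress, had 66.2, 51.3 and 46.7, and IFH1, the coactivator, 45.8, 52.8 and 61.4. HMO1, which binds many of these promoters, had 368, 377 and 339.7. FHL1, the factor that carries Ifh1, had 24.6, 19.8 and 12.4, the last under the floor. At 15 µM IFH1 was thus above the control array and the other 4 were below it, though HMO1 lay at 0.0044 (log2 ratio) after centring on signal.

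Among kinases and repressors, TOR1, a growth-controlling kinase, had 38.5 on the control array, 55.5 at 7.5 µM and 53.8 at 15 µM. MAF1, the repressor of RNA polymerase III, had 36.8 at 7.5 µM and 30.5 at 15 µM and was under the floor on the control array, so it was at least 2.02-fold and at least 1.67-fold higher. DOT6, a repressor of ribosome biogenesis genes, had 149, 119 and 109. SCH9, YAK1, TOD6, STB3, TOR2 and TAP42 had log2 ratios between -0.23 and 0.31 at 15 µM over control and between -0.44 and 0.28 at 7.5 µM. MAF1, TAP42 and STB3 lay near the floor of 18.2.

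Other parts of the translation apparatus were set beside the members on the median-scaled arrays. For 65 ribosome biogenesis genes the median ratio was -0.25 (log2) at 15 µM over control, with 53 of 65 below 0 (52.4% of all genes), and -0.11 at 7.5 µM, with 42 of 65 below 0 (53.7% of all genes). Centring on signal left these at -0.19 and -0.06. Mitochondrial ribosomal protein genes (43) had medians of -0.33 and -0.16, and of -0.31 and -0.15 after centring, where the cytosolic members had -0.07 and 0.01. Initiation factors (24) had -0.22 and -0.09, and -0.11 and 0.04 after centring. Elongation and termination factors (8) had -0.19 and -0.25, and 0.0066 and -0.06 after centring. Ribosome-associated factors (7), among them chaperones but also ASC1 and STM1, had -0.25 and 0.03, and -0.07 and 0.07 after centring. Their 7.5 µM medians are the values of BTT1, which was above the floor on 1 array only. Dedicated ribosomal protein chaperones (9) had -0.06 and 0.23, and -0.03 and 0.23 after centring.

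RPP1, the RNase P and RNase MRP protein that the name rule takes, had 58.4 on the control array, 60.8 at 7.5 µM and 51.9 at 15 µM. The 10 RNase P and RNase MRP protein genes compared had a median of -0.11 (log2 ratio) at 15 µM over control and 0.05 at 7.5 µM over control.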

How the data were processed

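Total RNA from 3 yeast samples was hybridised to 1 Affymetrix array each. The deposited values are probe set intensities on a linear scale. How the authors summarised probes and corrected background is not given in the sources used here. Genes came from the platform annotation, with symbols updated through RefSeq. Of 9275 non-control probe sets, 6504 had 1 gene, 328 several and 2443 no entry.

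Signals were scaled so that the non-control probe sets of every array had the same median. Scaled values below the 40th percentile of all 3 arrays (18.2) were set to it before log2 transformation. Ratios were also centred by lowess on mean log2 signal (span 0.3), fitted without the members on probe sets above the floor on at least 1 of the arrays compared. Lowess came from statsmodels 0.14.6, tables were handled with pandas 2.3.3 and numpy 2.4.6 under Python 3.11.15, plots were drawn with matplotlib 3.10.9, and the centring was tested on simulated data. With 1 array per condition no test was run, the number of arrays limits the precision, and differences were read by size (1.5-fold and 2-fold, brighter array above the floor) beside all genes compared.

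The members and the gene lists were chosen with earlier results of these data known. The genes named were the 6 highest and 6 lowest ratios at 15 µM over control, the 4 highest and 4 lowest of the other comparisons, members past 1.5-fold after centring, stalk genes, the 4 brightest and 4 dimmest, the 5 widest and 3 narrowest pairs, the 3 highest, lowest and brightest shared probe sets, members under the floor, and the regulators. RPS22B was singled out after its values were seen. Alternatives were the deposited values, quantile and spike scaling, other centrings and floors, a pseudocount, means over probe sets and plain probe sets only. Promoter motifs and protein identity, which had been planned, are not analysed here.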

Additional observations from a re-analysis of the deposited data

How the results depend on the processing

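No paired analysis was possible because each condition had 1 array. Deposited values, other floors, a pseudocount and means over probe sets left every family median and count within its tolerance, the spread between probe sets of a gene or 1.5 times. The choices that moved results were those that treat bright signals or the array level differently, and the cause was not tested. Plain probe sets alone also moved fold counts, as given at the end. Medians follow in the order of all members, shared probe sets, large subunit, small subunit and stalk. At 15 µM over control they were -0.0674, -0.0548, -0.0674, -0.0773 and 0.0585 with lowess fitted without members. They were -0.0838, -0.0702, -0.0838, -0.0922 and 0.0429 with its span at 0.1 (chosen after seeing the data) and -0.0516, -0.0314, -0.0520, -0.0522 and 0.0766 with members included. Quantile normalization gave -0.0754, -0.0615, -0.0721, -0.11 and 0.0416, and spike scaling 0.50, 0.54, 0.52, 0.49 and 0.65. At 7.5 µM over control the same alternatives gave 0.0130, -0.0271, 0.0130, 0.0317 and -0.0122 without members, 0.0243, -0.0250, 0.0243, 0.0336 and -0.00963 with span 0.1 and 0.00980, -0.0295, 0.00980, 0.0288 and -0.0151 with members included. Quantile normalization gave -0.0271, -0.0642, -0.0197, -0.0429 and -0.0229 there, and spike scaling 0.41, 0.43, 0.42, 0.41 and 0.40. At 15 µM over 7.5 µM spike scaling gave 0.0744, 0.0598, 0.0714, 0.0704 and 0.0915. With any lowess or quantile normalization 0 genes were 1.5-fold lower at 15 µM and 6 were 1.5-fold higher at 7.5 µM, and genes below 0 at 7.5 µM numbered 39, 39 and 40 with the 3 lowess fits. With spike scaling 0 genes lay below 0 at either dose over control (2.59% of all genes at 15 µM and 3.33% at 7.5 µM) and 27 at 15 µM over 7.5 µM (32.2% of all genes). Then 31 and 19 were 1.5-fold higher at 15 µM and 7.5 µM, where 65.8% and 50.3% of all genes were, and 5 and 7 were past 2-fold, where 26.8% and 16.6% of all genes were. At 15 µM 0 were 1.5-fold lower over control (0.456% of all genes) or over 7.5 µM (1.39%). RPL5, RPS28B, RPS31 and RPP2A then had 0.037, 0.062, 0.11 and 0.24 at 15 µM. With plain probe sets only, on the median-scaled arrays, 0 genes were 1.5-fold higher at either dose and 0 past 2-fold at 7.5 µM.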
